A study of Mus musculus with 23 samples.

Results

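The loss of p110δ from hematopoietic stem cells (HSC) that already lacked p110α was read by comparing 3 arrays of p110αδ DKO HSC with 3 arrays of p110α-/- HSC. These 6 arrays were chosen by their titles from the 23 arrays of the series, and no wild-type (WT) array entered the comparison. The cells were sorted from mouse bone marrow as cells positive for c-Kit and CD150 and negative for lineage markers, Flk2 and CD48, and their RNA was hybridised to Affymetrix Mouse Transcriptome Assay 1.0 arrays. The DKO group lacked both p110α and p110δ, and the p110α-/- group lacked p110α alone, so that both groups shared the p110α deficiency and differed by p110δ. Each group held 2 male samples and 1 female sample. The marrow came from transplant recipients whose marrow was pooled, and the labels give neither the alleles, the promoter that drove any deletion, the age of the animals nor the share of host cells. They also leave unsaid whether each array had a pool of its own, so that p-values measure the spread among these samples and this spread may be technical. Pik3ca and Pik3cd, which encode p110α and p110δ, and the genes of the sort markers were not analysed here, so the loss of either subunit was not checked on these arrays. Values are log2 expression per transcript cluster, which is the set of probes designed for 1 gene or transcript group, and differences are log2 values of DKO minus p110α-/-. The number of arrays limits the precision, and in bulk RNA fewer cells of a type and less RNA per cell cannot be told apart.

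Phosphoinositide 3-kinases (PI3K) of class I, whose catalytic subunits include p110α and p110δ, are lipid kinases that act below cytokine and growth factor receptors and recruit AKT to the membrane. AKT in turn phosphorylates FOXO transcription factors and keeps them out of the nucleus, and it feeds into mTOR signalling. p110α is found in most tissues, whereas p110δ is enriched in blood cells, and in stem cells the pathway is known for its part in the balance between quiescence, division and differentiation.

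The 6 arrays were alike in their distribution, with medians between 4.90 and 5.01 and a mean Pearson correlation of 0.987 to 0.990 with the other 5 arrays. The authors' deposited averages for HSC DKO and HSC p110α-/- were matched within 0.01 on the log2 scale by the labelled arrays for 100% of entries. In contrast, the averages in the authors' deposited table for p110α-/- lymphoid-primed multipotent progenitors (LMPP) were matched for 100% of entries when HSC p110α-/- replicate 2 took the place of LMPP p110α-/- replicate 3, and for 17.1% with the labelled arrays. The mean level of 3 HSC identity genes, Vwf, Selp and Tek, was 9.96 on that array and 10.48 to 11.12 on the other 5, against 7.59 to 8.45 on the LMPP arrays of the same genotypes, so that it sat with the HSC by these markers. The neutrophil genes were uneven within both groups, with a mean level of 8.79 on DKO replicate 2 against 6.12 and 6.02 on the other DKO arrays, and of 7.68 on p110α-/- replicate 2 against 6.13 and 6.67. Another array stood apart for stress genes: the mean of Ddit3 and Gadd45b, which rise when cells are stressed in handling, was 11.05 on p110α-/- replicate 1 and 9.87 to 10.16 on the other 5 arrays. Erythroid genes had no named cluster, and the 2 macrophage genes with a name were too dim to be tested.

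No transcript cluster passed limma's test at an adjusted p below 0.05 among the 32978 tested (0% called), and the smallest adjusted p was 0.152. At an unadjusted p below 0.05, limma counted 1965 clusters (5.96%), of which 1359 were higher in DKO (4.12%) and 606 lower (1.84%). The tilt towards higher values depended on the scaling: 69.2% of these clusters were higher in DKO with the deposited values, 52.3% after quantile normalisation and 43.3% with each array centred on its median. The groups of 3 did not overlap for 3593 clusters (10.9%), with DKO above for 6.35% and below for 4.55% of all clusters. Asking for a 1.5-fold difference as well left 774 clusters higher in DKO (2.35%) and 255 lower (0.773%). A limma fit that took its estimate of spread from all 12 HSC arrays called 4 clusters (0.0121%), 2 higher and 2 lower in DKO, and a fit of the 9 HSC knockout arrays called 3. The genes below are therefore described by their values, and none of them passed the adjusted threshold on its own groups.

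Symbols were available only for clusters that the authors had listed as different from WT, which left 248 named genes tested of 306. Of these, 34 had an unadjusted p below 0.05 (13.7%), 15 of them higher and 19 lower in DKO. Among the 66 listed in a table that used arrays of this comparison, 20 did so (30.3%), and since the authors chose them partly on the same arrays this share is no independent evidence. Among the 182 listed only in tables of other arrays, 14 did so (7.69%), which is near the 5.96% over all clusters.

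The named genes with the clearest lower values in DKO included genes switched on quickly by receptor signalling and inhibitors that such signalling induces. All 4 immediate early genes that could be tested had lower means in DKO, with a median log2 difference of -1.43 against 0.02 over all clusters, and 2 of them had an unadjusted p below 0.05. All 4 feedback inhibitors were also lower on average, with a median of -0.86, and 3 of them had an unadjusted p below 0.05. Beside these counts stand the 5.96% over all clusters and the 30.3% among named genes listed on arrays of this comparison, and the lists hold too few members to be called different from either. Nr4a1, a nuclear receptor of the immediate early class, read 15.78, 16.30 and 15.25 on the DKO arrays and 17.98, 17.10 and 17.13 on the p110α-/- arrays. All 3 DKO values of this very abundant transcript lay below all 3 p110α-/- values, a 3.09-fold difference (log2 -1.63, SE 0.34, limma adjusted p = 0.499), and leaving out each array in turn kept the log2 difference between -1.89 and -1.34. Sik1, a kinase of the salt-inducible family that is induced by cyclic AMP, read 14.43, 13.77 and 14.05 in DKO and 16.17, 15.37 and 14.94 in p110α-/-. These groups did not overlap either, and the log2 difference was -1.42 (SE 0.34, limma adjusted p = 0.558).

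Fosl2, a subunit of the AP-1 transcription factor, had log2 values of 10.42, 10.24 and 9.75 in DKO and of 13.74, 11.28 and 11.16 in p110α-/-. Every DKO value was lower, but p110α-/- replicate 1 was far above the other arrays, and the log2 difference of -1.93 (SE 0.68) became -1.09 without it. Klf4, a Krüppel-like transcription factor, had groups that overlapped, with 11.96, 13.37 and 11.81 in DKO and 14.27, 12.75 and 13.81 in p110α-/- (log2 difference -1.23, SE 0.53). Its relative Klf2, which is also a FOXO target, differed little, with a log2 difference of -0.20 that became 0.03 without p110α-/- replicate 1, 0.06 without p110α-/- replicate 3 and 0.10 with array weights. As p110α-/- replicate 1 was also the array with the highest Ddit3 and Gadd45b values, the immediate early list was read without it, and its median was then -0.99. The part of handling in the remaining difference was not tested.

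The feedback inhibitors act at several levels of receptor signalling. Spry2, a Sprouty protein that dampens receptor tyrosine kinase signalling to the MAP kinases, read 9.55, 9.17 and 8.61 in DKO and 11.13, 10.71 and 10.03 in p110α-/-, with no overlap (2.85-fold lower, log2 -1.51, SE 0.35, limma adjusted p = 0.526). Dusp4, a phosphatase that inactivates MAP kinases in the nucleus, read 9.45, 9.14 and 8.39 in DKO against 10.51, 9.93 and 10.01 in p110α-/- (log2 -1.15, SE 0.30, limma adjusted p = 0.647). Its groups were separate, and the highest DKO value was 9.45 against a lowest p110α-/- value of 9.93. Bambi, a decoy receptor of the TGF-β family, ran from 6.96 to 7.37 in DKO and from 7.40 to 8.13 in p110α-/-, and its log2 difference was -0.57 (SE 0.23). The phosphatase Dusp10 overlapped between the groups, at 7.24 to 7.69 and 7.44 to 8.45. Without p110α-/- replicate 1 the median of the 4 inhibitors was -0.66, and the smallest differences over the arrays left out in turn were -0.34 for Bambi and -0.17 for Dusp10.

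Among the other genes with lower means in DKO, Ptgs2, the inducible cyclooxygenase of prostaglandin synthesis, read 8.21, 9.05 and 8.66 in DKO and 9.67, 9.65 and 9.21 in p110α-/-. The groups did not overlap, though the gap between the nearest values, 9.05 and 9.21, was narrow (log2 difference -0.88, SE 0.25, limma adjusted p = 0.697). Rab6b, a small GTPase of the Golgi, had the smallest unadjusted p of the lower named genes, with 4.97, 5.01 and 5.13 in DKO and 6.07, 6.01 and 5.70 in p110α-/- (log2 -0.89, SE 0.15, limma adjusted p = 0.426). Its DKO values were close to the array medians of 4.90 to 5.01, so that it was a dim transcript there. Vamp3, a SNARE protein of recycling endosomes, and Snx12, a sorting nexin, also had separate groups, with log2 differences of -0.83 (SE 0.30) and -0.65 (SE 0.19). Without the p110α-/- array at 10.84 the difference of Vamp3 was -0.49. Wdr5b, a WD-repeat protein close to Wdr5, differed by -0.77 (SE 0.19), the RNA-binding protein Mex3b by -0.80 (SE 0.27) and the melanocortin receptor Mc5r by -0.73 (SE 0.23). Over all 12 lower genes limma's adjusted p ran from 0.426 to 0.800.

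**Figure D1:**
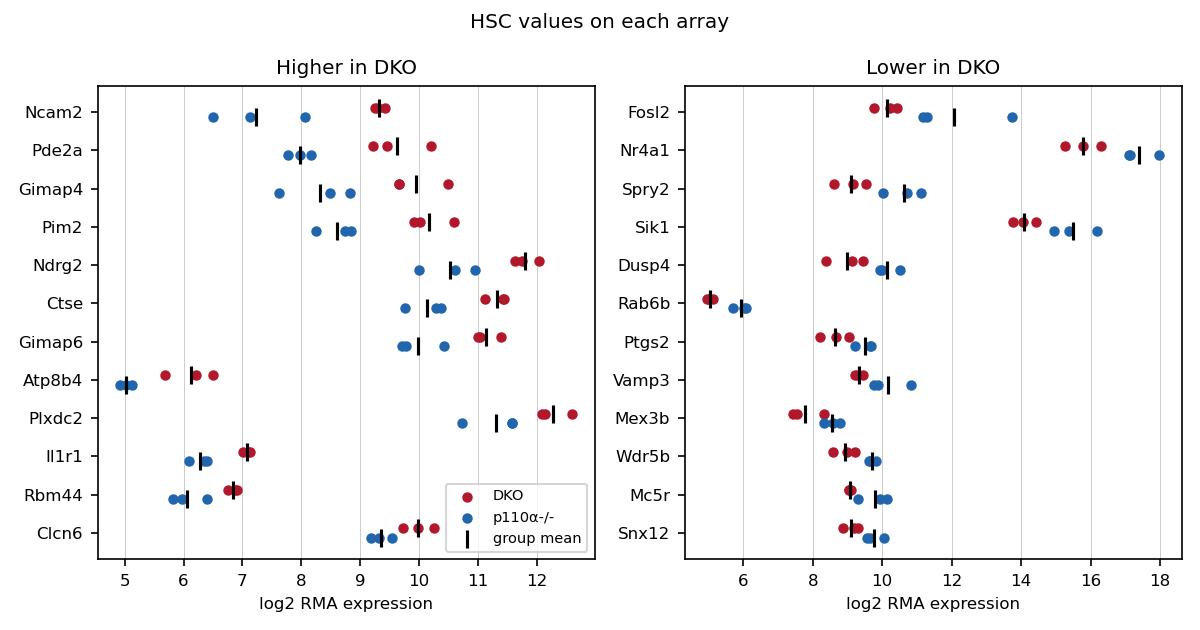
Log2 expression values of the 12 named genes higher in DKO HSC (left) and the 12 lower in DKO HSC (right), with each point 1 array (DKO red, p110α-/- blue) and a black bar at each group mean; the panels have different scales. The groups do not overlap for any gene drawn, which is how the genes were chosen, and the widest gaps between means are those of Ncam2 on the left and Fosl2 on the right, where 1 p110α-/- array lies far above the others.

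Promoter windows came from RefSeq (GRCm38.p6) and ran from 250 bases before to 50 after the transcript start. They were searched for 8 of the 12 lower genes and 9 of the 12 higher genes. Sik1, Dusp4, Vamp3 and Mc5r of the lower genes had no window in this search. Ctse, Plxdc2 and Rbm44 of the higher genes had none either. Whether the promoters of these genes hold the letters below was not tested. The windows of Nr4a1 and Ptgs2, quickly induced genes with lower means in DKO, are shown. They were picked because they hold letters like those of the cyclic AMP response element. The Nr4a1 window, at chr15:101266596-101266895 on the plus strand, holds TGCGTCA 4 times, in capitals, and the Ptgs2 window, at chr1:150099781-150100080 on the plus strand, holds TGACGT once on the minus strand, where the capitals mark it as read on the plus strand.
Nr4a1: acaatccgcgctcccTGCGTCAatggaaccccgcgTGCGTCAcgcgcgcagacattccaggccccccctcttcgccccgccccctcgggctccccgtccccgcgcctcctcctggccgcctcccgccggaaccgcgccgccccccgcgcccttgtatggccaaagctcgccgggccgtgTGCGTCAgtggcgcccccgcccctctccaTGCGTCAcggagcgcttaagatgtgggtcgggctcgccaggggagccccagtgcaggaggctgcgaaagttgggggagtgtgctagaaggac
Ptgs2: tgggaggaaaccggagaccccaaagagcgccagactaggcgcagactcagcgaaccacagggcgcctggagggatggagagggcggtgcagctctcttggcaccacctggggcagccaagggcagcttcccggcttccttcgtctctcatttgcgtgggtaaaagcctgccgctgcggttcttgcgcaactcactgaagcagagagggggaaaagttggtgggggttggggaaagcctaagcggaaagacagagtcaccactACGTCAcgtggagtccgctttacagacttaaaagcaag
Searched on both strands, TGCGTCA stands in 2.12% of the 32851 promoter windows and TGACGT in 7.51%. Of the 8 windows of lower genes 1 holds TGCGTCA, and 3 hold TGACGT, those of Mex3b, Ptgs2 and Wdr5b. The full palindrome TGACGTCA, which contains TGACGT, stands in 1.79% of all windows and in that of Wdr5b alone among the 8. No window of the 8 holds the AP-1 letters TGANTCA (7.81% of all windows), the FOXO letters TGTTTAC (3.65%) or a CArG box (1.63%). TGCGTCA was searched after the Nr4a1 window had been read, and a match is a description of these letters only.

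The genes with the clearest higher values in DKO were a survival kinase, enzymes of cyclic nucleotide and protein breakdown, surface proteins and lymphoid GTPases. Pim2, a kinase that promotes survival and is thought to be controlled mainly by its own abundance, read 10.59, 9.91 and 10.02 on the DKO arrays and 8.74, 8.25 and 8.84 on the p110α-/- arrays. The lowest DKO value was more than 1 log2 unit above the highest p110α-/- value, and the mean was 2.96-fold higher (log2 1.56, SE 0.24, limma adjusted p = 0.426). Pde2a, a phosphodiesterase that breaks down cyclic AMP and cyclic GMP, read 9.45, 10.21 and 9.22 in DKO against 7.99, 8.17 and 7.78 in p110α-/-, with no overlap and a 3.13-fold higher mean (log2 1.65, SE 0.27, limma adjusted p = 0.426). Ctse, the endosomal protease cathepsin E, was abundant in both groups, at 11.11, 11.42 and 11.45 and 10.28, 9.76 and 10.37. Its 3 DKO values were again all above the p110α-/- values (log2 difference 1.19, SE 0.20, limma adjusted p = 0.426).

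The Pim2 window, at chrX:7878056-7878355 on the plus strand, is shown because Pim2 had the smallest unadjusted p of the named genes. It holds the octamer letters ATGCAAAT 2 times, once on each strand, in capitals.
Pim2: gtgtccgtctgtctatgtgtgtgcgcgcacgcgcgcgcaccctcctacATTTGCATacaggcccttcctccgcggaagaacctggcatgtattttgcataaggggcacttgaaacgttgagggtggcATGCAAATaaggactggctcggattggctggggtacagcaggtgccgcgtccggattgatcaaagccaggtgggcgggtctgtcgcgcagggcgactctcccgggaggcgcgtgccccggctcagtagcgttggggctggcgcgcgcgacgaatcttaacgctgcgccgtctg
These letters stand in 1.74% of all windows and in none of the other windows of the higher or lower genes, and they were searched after the Pim2 window had been read. Among the windows of the higher genes TGTTTAC was found for Ndrg2, TGANTCA for Atp8b4 and TGCGTCA for Clcn6.

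Surface and HSC-enriched genes followed. Ncam2, a neural cell adhesion molecule, had the largest difference of the higher named genes, with 9.43, 9.24 and 9.30 in DKO and 8.06, 7.14 and 6.51 in p110α-/-. The DKO arrays lay within 0.2 log2 units of each other while the p110α-/- arrays spread over more than 1.5, and the mean was 4.26-fold higher (log2 2.09, SE 0.37, limma adjusted p = 0.426). Plxdc2, a transmembrane protein with a plexin domain, read 12.14, 12.09 and 12.60 in DKO and 11.58, 11.59 and 10.74 in p110α-/- (log2 difference 0.98, SE 0.28, limma adjusted p = 0.698). Ndrg2, of the family of genes repressed by N-myc, read 11.74, 11.63 and 12.04 and 10.95, 10.61 and 10.01, with separate groups (log2 difference 1.28, SE 0.26, limma adjusted p = 0.464). Of the other genes that earlier work on these data had found to be HSC-enriched, Aspa, which hydrolyses N-acetylaspartate, differed by 0.44 (SE 0.27) and Sytl5, an effector of vesicle transport, by -0.40 (SE 0.38), both with groups that overlapped and with differences down to 0.24 and -0.05 with 1 array left out.

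Gimap4 and Gimap6 belong to a family of GTPases best known from lymphocytes. Gimap4 read 9.67, 10.49 and 9.67 in DKO and 8.83, 7.62 and 8.49 in p110α-/-, a 3.09-fold higher mean (log2 1.63, SE 0.37, limma adjusted p = 0.525). Gimap6 read 10.997, 11.39 and 11.04 and 10.43, 9.79 and 9.72, with separate groups as well (log2 1.16, SE 0.23). These were the only named and tested members of the T and NK cell list, whose 23 genes include the receptor subunits that define those cells, so that the list gives no reading of T or NK cells. Il1r1, the signalling receptor of interleukin-1, had a small but even difference, with 7.01, 7.09 and 7.14 in DKO and 6.10, 6.35 and 6.40 in p110α-/- (log2 0.80, SE 0.14, limma adjusted p = 0.426). Atp8b4, a phospholipid flippase, differed by 1.11 (SE 0.22), the RNA-binding protein Rbm44 by 0.78 (SE 0.18) and Clcn6, a chloride and proton exchanger of late endosomes, by 0.64 (SE 0.18). Over all 12 higher genes limma's adjusted p ran from 0.426 to 0.700.

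The HSC identity genes that could be tested, 3 of a list of 34, were higher on average in DKO, each by less than 1 log2 unit. Vwf, the clotting glycoprotein that marks platelet-biased HSC, read 9.94, 9.29 and 10.15 in DKO and 9.62, 8.55 and 9.08 in p110α-/-, which overlapped (log2 difference 0.71, SE 0.33). Selp, the adhesion receptor P-selectin, read 12.68, 12.79 and 12.82 and 12.51, 11.88 and 12.54, with separate groups but a log2 difference of only 0.46 (SE 0.20). Tek, the angiopoietin receptor, overlapped and differed by 0.44 (SE 0.28). The median of the 3 was 0.46, none had an unadjusted p below 0.05, and the median was 0.24 without p110α-/- replicate 2. Vwf had been listed by the authors as higher in DKO than in WT HSC, so that its higher DKO mean follows in part from the choice. Selp and Tek were listed as higher in DKO than in WT LMPP. Of the other megakaryocyte genes, the matrix protein Thbs1 differed by -0.72 (SE 0.44, or -0.22 without p110α-/- replicate 1) and the cyclooxygenase Ptgs1 by -0.20 (SE 0.25), and the median of the 4 genes of that list was 0.13.

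The PI3K pathway's own genes overlapped between the groups, and 2 of the 9 FOXO targets did not, against 10.9% over all clusters. Of the 5 tested members of the insulin and mTOR list none had an unadjusted p below 0.05, and the median log2 difference was 0.05. Deptor, an inhibitor of mTOR, differed by 0.25 (SE 0.14), the insulin receptor Insr by 0.20 (SE 0.20), the AKT-related kinase Sgk1 by -0.17 (SE 0.26) and the mTOR complex subunit Rictor by 0.05 (SE 0.17). Rictor and Sgk1 both turned in sign with arrays left out, and Rictor also with arrays centred on their medians (-0.03). The insulin receptor substrate Irs2 ran from 11.74 to 12.87 in DKO and from 11.59 to 14.42 in p110α-/-, with its highest value on p110α-/- replicate 1, and its difference of -0.80 (SE 0.70) was -0.12 without that array.

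Among the 9 FOXO targets tested, 4 had higher and 5 lower means in DKO, none had an unadjusted p below 0.05, and the median was -0.20, or 0.04 without p110α-/- replicate 1. Cdkn1a, the cell cycle inhibitor that is also a p53 target, read 10.20, 10.32 and 9.41 in DKO and 13.09, 10.80 and 10.65 in p110α-/-. The groups were separate, with p110α-/- replicate 1 far above the rest, and the log2 difference of -1.54 (SE 0.66) was -0.75 without it. The pseudokinase Trib1 had the same array on top, at 11.01 against 8.21 to 8.93 on the other 5, and its difference of -0.75 (SE 0.68) was 0.08 without it. The transcriptional repressor Bcl6 differed by -0.36 (SE 0.17) with separate groups, and by -0.22 without the same array. The stress-response gene Sesn1 differed by 0.24 (SE 0.24), and Gadd45a by less than 0.01, with a sign that changed after quantile normalisation (-0.07). Plk2, a p53-induced kinase, differed by -1.07 (SE 0.55), and by -0.50 without p110α-/- replicate 1. The median of the 4 p53 targets was -0.53, and -0.23 without that array.

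Genes of granulocyte and monocyte progenitors had higher means in DKO, but this rested on 1 array. Ms4a3, a marker of these progenitors, read 5.60, 8.77 and 7.30 in DKO and 5.14, 5.52 and 5.59 in p110α-/- (log2 difference 1.81, SE 0.73, limma adjusted p = 0.832). Its lowest DKO value lay only about 0.01 above its highest p110α-/- value. Ly6c2, a surface marker of monocytes and their progenitors, read 6.94, 11.20 and 7.45 and 6.77, 7.04 and 6.48, with DKO replicate 2 more than 3 log2 units above every other array. The log2 difference of Ly6c2 was 1.77 (SE 1.06), and 0.43 without that array, and that of Ms4a3 was then 1.04. The azurophil protease Ctsg and the secreted lectin Fcnb differed by 0.83 (SE 0.56) and 0.63 (SE 0.75), and by 0.22 and -0.28 without DKO replicate 2. All 4 tested genes of the list were higher on average with a median of 1.30, which was 0.32 without that array. Ms4a3, Ly6c2 and Fcnb had been listed by the authors as lower in p110α-/- than in WT HSC. Their higher DKO means therefore follow in part from the choice. The list mean ran from 5.73 to 6.39 in p110α-/-, from 6.01 to 9.10 in DKO and from 6.57 to 8.39 in WT HSC.

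The mature neutrophil genes, 12 of 15 named ones tested, had a median of 0.13, with 7 higher and 5 lower and none below an unadjusted p of 0.05. The antimicrobial peptide gene Camp, chosen with S100a9 after their values had been seen, showed the same uneven arrays, at 7.27, 13.52 and 7.08 in DKO and 7.61, 11.80 and 8.85 in p110α-/-. The alarmin gene S100a9 followed it, at 7.27, 12.43 and 7.05 and 7.05, 11.06 and 8.70. Replicate 2 of either group was the highest in that group for both genes, and the median of the 12 was -0.35 without DKO replicate 2 and 0.41 without p110α-/- replicate 2. The signed differences of the named members were 0.40 for the secreted protein Retnlg, 0.26 for the receptor Trem1, 0.62 for the granule protein Wfdc21 and -0.16 for the integrin Itgb2l, with SE from 0.21 to 0.87. Those of Retnlg, Trem1 and Wfdc21 turned negative without DKO replicate 2, at -0.07, -0.01 and -0.33. The part of these cells in the other differences was not tested.

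Cell division genes did not separate the groups. The 7 tested genes of G2 and M phase had a median of 0.11, with 5 higher and 2 lower, and -0.36 without p110α-/- replicate 1. The spindle checkpoint kinase Bub1 differed by 0.26 (SE 0.28), topoisomerase Top2a by -0.18 (SE 0.38), the cytokinesis factor Ect2 by 0.26 (SE 0.56) and the spindle pole protein Aspm by -0.10 (SE 0.33). All 4 changed sign when 1 array was left out. The 7 genes had all been listed by the authors in tables that used arrays of this comparison, so that they are no neutral sample of division genes. Top2a, Ect2 and Aspm were listed as lower in DKO, and Bub1 as lower in p110α-/-, than in WT HSC. In the NF-kB and interleukin-1 list of 6 genes, with a median of -0.41 that was -0.08 without p110α-/- replicate 1, the receptor Il1r1 and the enzyme Ptgs2 differed in opposite directions, as given above. The NF-kB inhibitor Tnfaip3 differed by -0.76 (SE 0.48) and the decoy receptor Il1r2 by -0.75 (SE 0.53), with overlapping groups. That of Tnfaip3 was -0.27 without DKO replicate 3 and that of Il1r2 -0.14 without p110α-/- replicate 1. The 7 adhesion genes, with 2 at an unadjusted p below 0.05, had a median of 0.07, with Ncam2, Plxdc2 and Selp on the higher side and the hyaluronan receptor Cd44 lower by mean (log2 difference -0.57, SE 0.27, or -0.34 without DKO replicate 2). The 10 immunoglobulin genes had a median within 0.01 of 0, from -0.31 to 0.46, and 1 of them, Ighv1-75, had an unadjusted p below 0.05 (log2 difference 0.46, SE 0.15). The segments Ighv1-34 and Ighv1-62-1 differed by 0.21 and -0.08. Beside the counts of 2 of 7 and 1 of 10 stand 5.96% over all clusters and 13.7% among named genes. Both lists hold too few members to be called different from either.

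**Figure D2:**
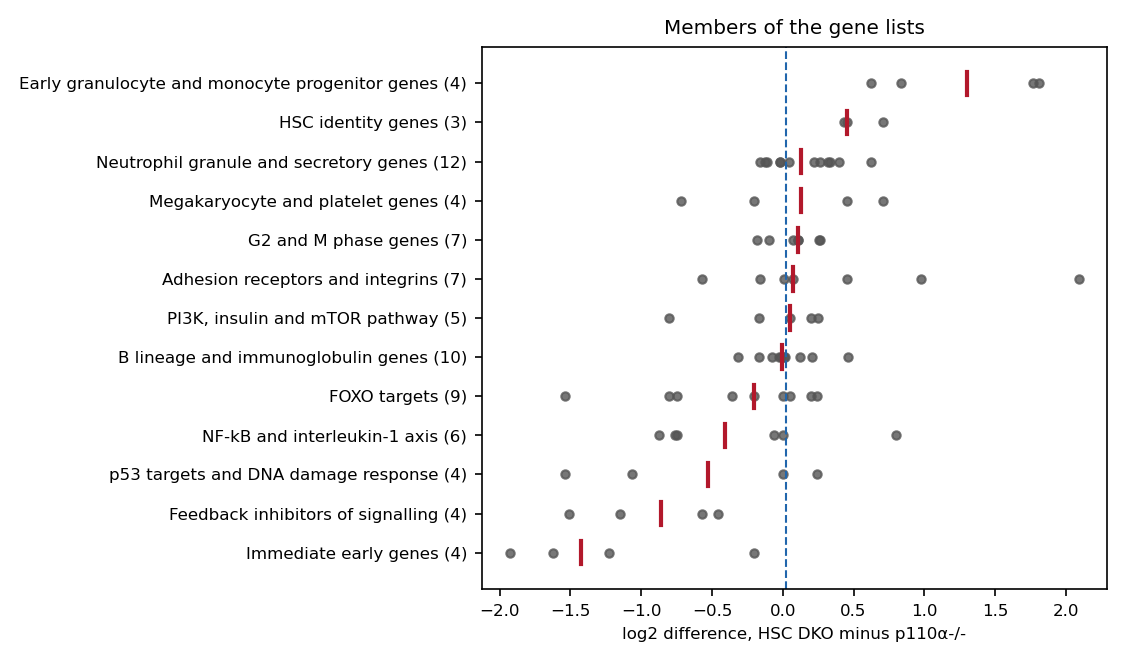
Log2 difference of DKO minus p110α-/- HSC for each named and tested member of 13 gene lists (grey points, with the number of members beside the list's name), with the list median in red and the median of all 32978 clusters as a dashed line. The 4 immediate early genes and the 4 feedback inhibitors all lie to the left of 0, and the 4 early granulocyte and monocyte progenitor genes and the 3 HSC identity genes all lie to the right. Members carry symbols because the authors listed them as different from WT, in part on these arrays.

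Of the microRNA clusters, that of Mir142 had a larger difference than any named protein-coding gene. The clusters of Mir142, which encodes a microRNA typical of blood cells, and of Mir142b on the opposite strand of the same locus were picked out after their values had been seen, as was Mir181b-2, of a family known from lymphoid cells. The mature sequences, from RefSeq (GRCm38.p6), are shown because those of Mir142 and Mir142b overlap on opposite strands, with the seed (bases 2 to 8) in capitals.
mmu-miR-142a-5p (chr11:87756867-87756887, plus strand): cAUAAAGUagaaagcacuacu
mmu-miR-142a-3p (chr11:87756903-87756925, plus strand): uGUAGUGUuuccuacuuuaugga
mmu-miR-142b (chr11:87756906-87756925, minus strand): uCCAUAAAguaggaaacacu
mmu-miR-181b-5p (chr2:38853845-38853868, plus strand): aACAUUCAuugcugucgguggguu
None of the 4 shares its seed with another. All 20 bases of miR-142b match the reverse complement of miR-142a-3p. The array clusters read precursor or host transcripts and not the mature forms. The Mir142 cluster read 10.86, 12.10 and 10.18 in DKO and 8.25, 7.71 and 8.31 in p110α-/-, a 7.76-fold higher mean with separate groups (log2 2.96, SE 0.48, limma adjusted p = 0.426). WT HSC read 8.62, 10.21 and 10.10 and p110δ-/- HSC 11.38, 11.27 and 10.40, so that the p110α-/- arrays were the lowest of the 4 genotypes. For Mir142b the values were 6.62, 7.04 and 6.83 in DKO and 5.34, 5.38 and 5.63 in p110α-/- (log2 1.38, SE 0.16, limma adjusted p = 0.364). Here too p110α-/- was lowest, with 6.52 to 6.98 in WT and 6.66 to 7.76 in p110δ-/-. Both clusters carry symbols because the authors had listed them as different between p110α-/- and WT HSC. That the p110α-/- arrays were the lowest therefore follows in part from the choice. Mir181b-2 was dimmer, at 5.76, 6.70 and 6.92 in DKO and 5.27, 5.35 and 4.93 in p110α-/- (log2 1.28, SE 0.32, limma adjusted p = 0.592), and its WT values of 4.95 to 5.13 were like those of p110α-/-.

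The 4 clusters called by the fit of all 12 HSC arrays lay outside the rule for named genes, and all were chosen after their values had been seen. The cluster TC0400001906.mm.1 on chromosome 4, which the authors' deposited table classes as non-coding with no symbol, read 9.42, 8.94 and 9.92 in DKO and 5.01, 5.79 and 5.50 in p110α-/-. Its groups were about 4 log2 units apart (log2 3.997, SE 0.30, limma adjusted p = 0.152 on the 6 arrays and 0.0218 on the 12). The predicted gene LOC100861716, also on chromosome 4, read 5.41, 5.50 and 5.52 and 6.94, 6.82 and 6.80 (log2 -1.38, limma adjusted p = 0.0218 on the 12 arrays). Gm5945, a predicted gene on the X chromosome, read 6.34, 5.79 and 5.72 and 8.13, 8.21 and 8.06 (log2 -2.19, limma adjusted p = 0.0456 on the 12 arrays), and whether its probes also read other copies was not tested. The unnamed cluster TC0500001100.mm.1 on chromosome 5 read 6.34, 6.90 and 6.55 and 5.26, 5.11 and 4.91 (log2 1.51, limma adjusted p = 0.0456 on the 12 arrays). All 4 had separate groups, and leaving out any array of the 6 kept the first difference between 3.75 and 4.24. In p110δ-/- against WT HSC the log2 differences were 4.21, -0.84, -1.71 and 0.39 in the same order. The first of these passed limma's test there (adjusted p = 0.0137), and in LMPP it differed by 3.80 (SE 0.54).

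Chromosome 4 carries Pik3cd, the gene whose loss separates the groups. Over the whole chromosome 153 of 2225 clusters had an unadjusted p below 0.05 (6.88%), against 5.96% over all chromosomes. The clusters whose symbol could be placed in the RefSeq gene order numbered 26. Within 150 genes to either side of Pik3cd, a window chosen after the values had been seen, 5 of 9 had an unadjusted p below 0.05, against 1 of 17 elsewhere on the chromosome. Only clusters that the authors had listed as different from WT had a symbol and could be placed. Clcn6, Gm21411 and Gm23318 were listed for DKO and for p110δ-/- HSC, and Vamp3 for p110δ-/- LMPP. These counts are therefore no independent evidence of differences near Pik3cd. Clcn6, at 53 genes before Pik3cd, was higher in DKO, with 10.25, 9.98 and 9.72 against 9.33, 9.19 and 9.53. Dhrs3, a reductase of retinal that was chosen after its values had been seen, lies 148 genes before it and read 10.52, 10.68 and 10.91 against 9.89, 9.09 and 10.38 (log2 0.92, SE 0.33, or 0.57 without p110α-/- replicate 2). Vamp3, at 35 genes after Pik3cd, was lower, with 9.45, 9.21 and 9.30 in DKO against 10.84, 9.75 and 9.87. The predicted genes Gm21411 and Gm23318, at 96 and 34 genes before it, differed by 1.22 and -0.89. TC0400001906.mm.1 and LOC100861716, which had the smallest unadjusted p of all clusters and opposite directions, had no place in this order. Their identifiers fall between those of clusters placed at 110 and 34 genes before Pik3cd. Both were listed by the authors for DKO HSC, and their positions were not checked. The directions near Pik3cd were thus mixed, and the part of linked sequence in these differences was not tested.

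**Figure D3:**
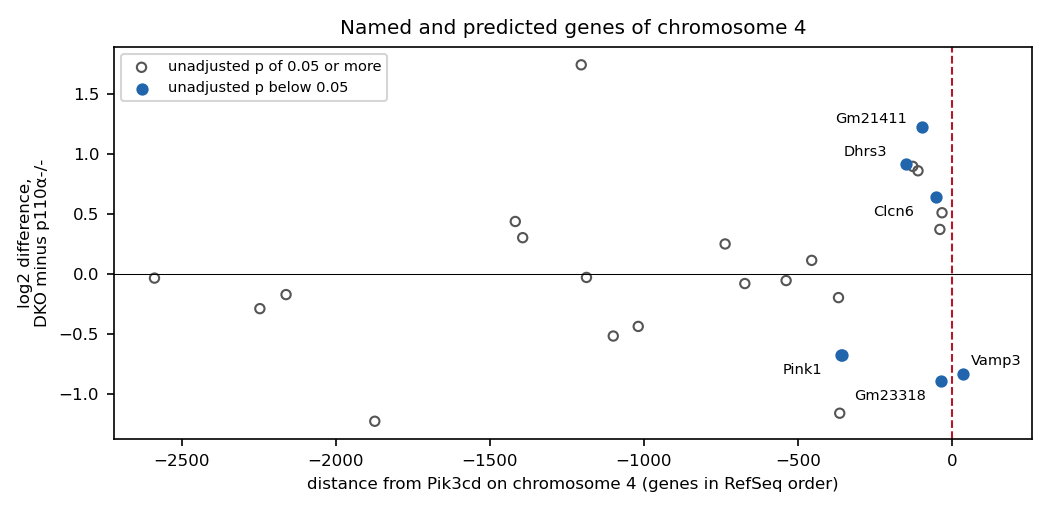
Log2 difference of DKO minus p110α-/- HSC for clusters of chromosome 4 whose symbol has a place in the RefSeq gene order, plotted by the number of genes between each and Pik3cd (dashed line). Filled points have an unadjusted p below 0.05, and 5 of the 6 such clusters lie within 150 genes of Pik3cd, 3 above and 2 below 0. Only clusters listed by the authors as different from WT could be placed, in part on p110δ-deficient arrays, so these counts are no independent evidence.

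The same subunit was also lost where p110α was present, in p110δ-/- HSC against WT HSC, which share no array with the comparison above. A limma test of the difference between both losses over the 12 HSC arrays called no cluster (0% of 32978), with 676 at an unadjusted p below 0.05 (2.05%), and the smallest adjusted p was 1.000 to 3 decimals. Over all tested clusters, which are not independent, the log2 differences had a Pearson correlation of 0.478 and a Spearman correlation of 0.384, and 62.2% had the same sign. Of the 774 clusters at least 1.5-fold higher in DKO with separate groups, 722 (93.3%) also had a higher mean in p110δ-/- than in WT, with a median of 0.69, and of the 255 lower ones 193 (75.7%) also had a lower mean, with a median of -0.31.

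On its own, the loss with p110α present gave 3 limma calls (0.0091%), and 8.37% of clusters at an unadjusted p below 0.05. The 12 lower genes had the same sign in p110δ-/- HSC for 12 of 12, with a median log2 difference of -0.73, and 3 of them were listed by the authors on that comparison. Of the others, Spry2, Mex3b and Mc5r were listed as lower in DKO than in the same WT HSC. The count of 12 of 12 is therefore no independent evidence. Nr4a1 was at 15.90, 16.42 and 15.45 in p110δ-/- and 17.33, 17.90 and 16.73 in WT, a log2 difference of -1.40 (SE 0.38) beside -1.63 without p110α. Rab6b had the same difference of -0.89 with and without p110α. Ptgs2 was at 8.23, 8.52 and 8.29 in p110δ-/- and 9.91, 9.61 and 9.30 in WT (log2 -1.26, SE 0.23), and Klf4 differed by -1.60 (SE 0.50). The authors had listed Nr4a1, Rab6b, Ptgs2 and Klf4 as different between p110δ-/- and WT HSC, which is part of why they carry symbols, so that their lower p110δ-/- means are no independent evidence. Spry2 differed by only -0.37 (SE 0.39) where p110α was present, and the difference between both losses was -1.14 (SE 0.55, limma adjusted p = 1.000).

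The 12 higher genes had the same sign for 10 of 12, with a median of 0.34. As they were chosen for a large and even difference without p110α, a smaller difference elsewhere follows in part from the choice, and differences between both losses are given for them as a description. Pim2 was at 8.40, 8.76 and 8.79 in p110δ-/- and 8.21, 8.52 and 9.20 in WT (log2 difference 0.01, SE 0.27), so that all 3 DKO arrays lay above all 9 arrays of the other HSC genotypes. As the authors had listed Pim2 as higher in DKO than in WT HSC, its place above the WT and p110α-/- arrays follows in part from the choice. The difference between both losses was 1.56 for Pim2 (SE 0.39, limma adjusted p = 1.000). Ctse was at 9.73, 10.37 and 11.01 in p110δ-/- and 10.47, 11.32 and 10.10 in WT (log2 -0.26, SE 0.36), and the difference between both losses was 1.45 (SE 0.50, limma adjusted p = 1.000). Ndrg2 and Plxdc2 had p110δ-/- means within 0.1 of WT, with differences between both losses of 1.21 (SE 0.39) and 1.04 (SE 0.39). Pde2a differed by 0.44 (SE 0.31) with p110α and by 1.65 without it. Ncam2, Rbm44, Il1r1 and Clcn6 had higher p110δ-/- means as well, by 1.08, 0.78, 0.68 and 0.91. Clcn6 had been listed by the authors as higher in p110δ-/- than in WT HSC. Ncam2 and Il1r1 were listed as higher in DKO than in the same WT HSC. For Clcn6, Ncam2 and Il1r1 the higher p110δ-/- means are therefore no independent evidence. Phtf2, a putative homeodomain transcription factor picked for its small unadjusted p in this test, was at -0.20 without p110α and 0.56 with it (limma adjusted p of the difference = 1.000). None of these differences passed the adjusted test.

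**Figure D4:**
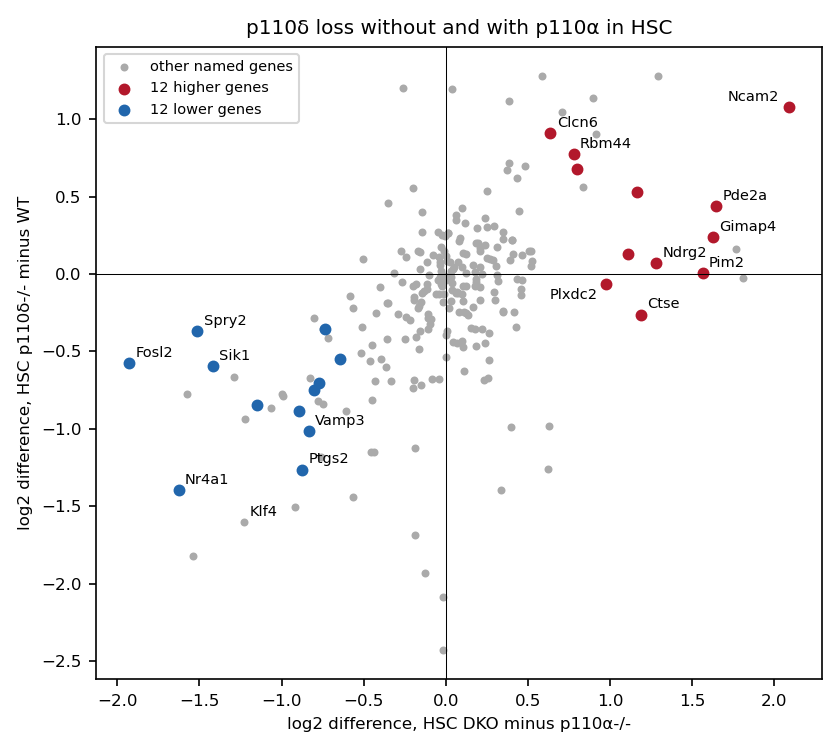
Each named and tested gene by its log2 difference without p110α (DKO minus p110α-/- HSC, horizontal) and with p110α (p110δ-/- minus WT HSC, vertical), with the 12 higher genes in red and the 12 lower genes in blue. The blue points all lie below and to the left of 0, whereas Pim2, Ctse, Ndrg2 and Plxdc2 lie near or below 0 on the vertical axis. Some blue genes carry symbols because the authors listed them as lower in p110δ-/- or DKO than in the same WT HSC.

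The same genotypes were compared in LMPP, the Flk2-positive, CD150-negative and CD48-positive progenitors sorted in parallel. A limma test of the difference between the cell types called no cluster (0% of 32978), with 1188 at an unadjusted p below 0.05 (3.6%) and a smallest adjusted p of 0.0734, that of the immunoglobulin segment Ighv1-73, which differed by -0.03 in HSC and by -1.56 in LMPP. Another segment, Ighv1-12, differed by -0.31 in HSC and by -5.12 in LMPP, and the 10 immunoglobulin genes had list means of 5.65 to 6.14 in these HSC, 6.19 to 6.40 in DKO LMPP and 7.22 to 7.92 in p110α-/- LMPP. Both segments had been listed by the authors as lower in DKO than in WT LMPP, which is part of why they carry symbols. In LMPP alone limma called 3 clusters (0.0091%), with 7.19% at an unadjusted p below 0.05. The Pearson correlation over clusters was 0.283, the Spearman correlation was 0.235, and 57.7% of clusters had the same sign. Of the lower genes 11 of 12 were also lower on average in LMPP without p110δ, with a median of -0.99. Nr4a1 was at 14.37, 14.37 and 14.49 in DKO LMPP and 17.33, 16.58 and 15.71 in p110α-/- LMPP (log2 -2.13, SE 0.40), Sik1 differed by -1.48 (SE 0.57) and Dusp4 by -1.59 (SE 0.43). The immediate early list had a median of -1.47 and the feedback inhibitors one of -1.03 in LMPP. Nr4a1, Fosl2, Klf2, Dusp4 and Dusp10 had been listed by the authors as lower in DKO than in WT LMPP. Bambi, Sik1, Snx12 and Wdr5b were listed as higher in p110α-/- than in WT LMPP. The lower LMPP values of these genes, and the count of 11 of 12, are therefore no independent evidence. Ddit3 and Gadd45b, the handling and stress genes, had lower means as well, with a median of -0.88 in LMPP and of -1.14 in p110δ-/- against WT HSC, beside -0.32 in DKO against p110α-/- HSC. Their part in the lower Nr4a1, Klf4 and Dusp4 values was not tested.

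Of the higher genes 10 of 12 were also higher on average in LMPP, with a median of 0.45, and the choice of these genes on the HSC difference bears on this comparison in the same way. Atp8b4, Ctse, Plxdc2 and Gimap4 had also been listed by the authors as higher in DKO than in WT LMPP. The count of 10 of 12 follows in part from that listing. Ncam2 was at 5.01, 5.05 and 5.02 in DKO LMPP and 4.92, 4.83 and 5.14 in p110α-/- LMPP, a difference of 0.07 (SE 0.30), and the cell types differed by 2.02 (SE 0.42, limma adjusted p = 1.000). Pde2a differed by 0.05 in LMPP and Pim2 by 0.47, with differences between the cell types of 1.60 (SE 0.55) and 1.09 (SE 0.35). Il1r1 and Ndrg2 had lower means in DKO LMPP, with log2 differences of -0.22 and -0.20. Gimap4 had its larger difference in LMPP, at 7.91, 7.22 and 7.79 in DKO and 5.77, 5.10 and 4.80 in p110α-/- (log2 2.42, SE 0.37). The neutrophil genes had a median of -3.62 in LMPP beside 0.13 in HSC, with differences in LMPP of -4.94 for Retnlg and -3.28 for Trem1. Their list means were 8.39 to 14.27 on the LMPP arrays and 6.02 to 8.79 on the HSC arrays, which overlapped by 1 array of each cell type. Retnlg and Trem1 had been listed by the authors as lower, and Gimap4 as higher, in DKO than in WT LMPP. None of the 12 neutrophil genes was listed on arrays of the HSC comparison. The larger LMPP differences of these genes follow in part from that choice.

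**Figure D5:**
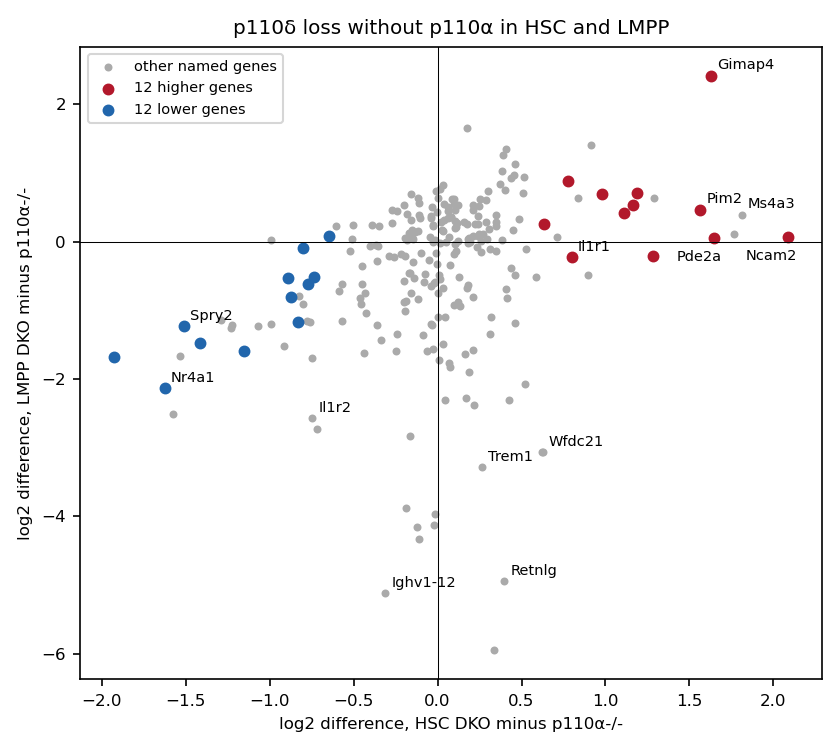
Each named and tested gene by its log2 difference of DKO minus p110α-/- in HSC (horizontal) and in LMPP (vertical), with the 12 higher genes in red and the 12 lower genes in blue. Nr4a1 and Spry2 lie low in both cell types, Ncam2 and Pde2a lie near 0 for LMPP, and neutrophil genes such as Retnlg and Trem1 lie far below 0 for LMPP alone. Nr4a1, Retnlg and Trem1 had been listed by the authors as lower in DKO than in WT LMPP, which is part of why they carry symbols.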

How the data were processed

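RNA of 23 samples was measured on 1 array each. The deposited value table holds log2 RMA values per transcript cluster, per the labels, and the submitters' processing notes name Expression Console and the Transcriptome Analysis Console of Affymetrix. Versions, genome build and annotation: not given in the sources used here. Per the file headers, the 6 deposited tables that set a knockout against WT hold log2 averages, p-values and a linear fold with a sign, which is a score that never falls between -1 and 1. They served only for gene symbols and for the check of averages, and 2 tables of overlapping genes were not used. Of 72688 rows 6732 were array controls and were left out, and 32978 clusters with a mean of at least log2 4.96 on the 6 arrays, the median over clusters, were kept for testing. Differences were tested with limma 3.58.1 (lmFit and eBayes) in R 4.3.3 on the 6 arrays, with Benjamini-Hochberg adjustment over all tested clusters and calls at an adjusted p below 0.05. The test of background used the 12 HSC arrays and that of cell type the 12 DKO and p110α-/- arrays of both cell types. The script was tested on simulated data. An exact permutation test of 3 against 3 cannot give a p below 0.1 and was not run.

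Of 561 listed clusters with a symbol, 524 had exactly 1, and 306 remained without predicted genes, small RNAs and receptor families. The text names, for each direction, the 12 named genes of smallest unadjusted p among those of at least 1.5-fold with separate groups, up to 4 members of each list with 3 or more named and tested members (all members up to 5), and up to 4 genes for each difference of effect. Other genes and clusters named were chosen after their values were seen. The members and the 24 gene lists were chosen with earlier results of these data known. Motifs were searched in RefSeq windows with Python 3.11.15, pandas 2.3.3 and numpy 2.4.6, and figures were drawn with matplotlib 3.10.9. Alternatives covered the arrays in the fit, sex as a covariate, limma's trend, robust and array weight options, the filter, the scaling, identical clusters counted once and each array left out.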

Additional observations from a re-analysis of the deposited data

Results flagged for a closer look

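A total of 3 named genes had separate DKO and p110α-/- groups in both HSC and LMPP but with opposite signs, among 248 tested. Separate groups are common over all clusters, at 10.9% in HSC and 12.3% in LMPP. Ighv1-75, an immunoglobulin heavy chain segment, was higher on average in DKO HSC (log2 difference 0.46, SE 0.15) and lower in DKO LMPP (-1.18, SE 0.15). The difference between the cell types was 1.64 (SE 0.21, limma adjusted p = 0.150). Its HSC values were 5.44, 5.34 and 5.43 in DKO and 4.69, 5.15 and 4.98 in p110α-/-. The protease gene Adam8 differed by 0.18 (SE 0.12) in HSC and -1.90 (SE 0.33) in LMPP, and the difference between the cell types was 2.08 (SE 0.47, limma unadjusted p = 0.00108, adjusted p = 1.000). Its HSC values were 5.31, 5.46 and 5.36 in DKO and 5.18, 5.26 and 5.14 in p110α-/-. The pseudogene Tdgf1-ps2 differed by 0.90 (SE 0.51, or 0.29 without p110α-/- replicate 3) in HSC and -0.48 (SE 0.42) in LMPP, and the difference between the cell types was 1.38 (SE 0.60, limma unadjusted p = 0.0429, adjusted p = 1.000). None of the 3 differences between the cell types passed the adjusted threshold. Ighv1-75 had been listed by the authors as lower in DKO than in WT LMPP, so that its lower DKO LMPP values follow in part from that choice.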

How the results depend on the processing

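No paired analysis was possible because the labels carry no replicate numbers, and those used here were given in accession order. The count of called clusters was 0 on the 6 arrays, 4 with all 12 HSC arrays in the fit (2 on chromosome 4) and 3 with the 9 HSC knockout arrays (1 on chromosome 4), and 0 with the other settings and with each array left out. The difference between backgrounds had 0 calls throughout, and that between the cell types 0, or 1 with no filter. With array weights the neutrophil median was -0.18 and the HSC identity median 0.64, and with the filter at the 75th percentile the immunoglobulin median was -0.31. Without p110α-/- replicate 2 the immediate early median was -1.72 and that of the feedback inhibitors -0.98. None of the 24 leading genes changed sign in any setting run. They were chosen for separate groups, so that leaving out an array could not have changed their signs. Other signs turned: Klf2 to 0.095 and Gadd45a to -0.034 with array weights, Gadd45a to -0.067 after quantile normalisation, and Gadd45a to -0.077 and Rictor to -0.031 with arrays centred on their medians. With each array left out in turn, the log2 differences ran from -0.69 to 0.057 for Klf2, -1.33 to 0.078 for Trib1, -0.29 to 0.066 for Sgk1, -0.052 to 0.17 for Rictor, -0.14 to 0.095 for Gadd45a, -0.41 to 0.25 for Aspm, -0.0296 to 0.53 for Bub1, -0.36 to 0.75 for Ect2 and -0.65 to 0.093 for Top2a. They ran from -0.067 to 0.72 for Retnlg, -0.0085 to 0.45 for Trem1, -0.28 to 1.08 for Fcnb, -0.33 to 1.14 for Wfdc21, -2.24 to 1.07 for Camp, -1.77 to 1.04 for S100a9, -0.88 to 0.31 for Ighv1-12, -0.078 to 0.045 for Ighv1-73, -0.16 to 0.022 for Ighv1-62-1 and -0.40 to 0.00602 for a kappa light chain segment. The median of all clusters shifted from 0.02 to -0.02 after quantile normalisation and to -0.06 with centring. The cause of these changes was not tested, except that a fit with more arrays has more residual degrees of freedom.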

Other observations

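Further named genes had an unadjusted p below 0.05 and lay outside the rule for named genes, and they were chosen after their values had been seen. Plaur, the receptor of urokinase, was lower on average in DKO HSC, with 8.94, 8.43 and 8.96 in DKO and 11.75, 10.00 and 9.30 in p110α-/-. The groups were separate (log2 difference -1.58, SE 0.59), and the difference without p110α-/- replicate 1, the array with the highest value, was -0.88. Tiparp, a mono-ADP-ribosyltransferase induced by the aryl hydrocarbon receptor, read 11.62, 11.33 and 11.36 in DKO and 13.73, 12.27 and 11.98 in p110α-/- (log2 difference -1.22, SE 0.44), again with separate groups, and its difference without p110α-/- replicate 1 was -0.69. Rtn4ip1, a mitochondrial oxidoreductase, differed by -0.51 (SE 0.20) and Cyb5b, a cytochrome of the outer mitochondrial membrane, by -0.39 (SE 0.13). The autophagy initiation factor Atg101 differed by -0.61 (SE 0.24). Limma's adjusted p for these genes ran from 0.766 to 0.832.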
